A study of Rattus norvegicus with 17 samples.

Results

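Vcan, Tnfaip6, Ccn3, Aebp1, Abi3bp, Nell2, Mmp9, Thbs4, Ptn and Mdk encode proteins that are secreted into the extracellular matrix or act there, and their RNA was read in single sensory neurons of the rat. They are 10 of the 32883 gene rows of the count tables, and each was found there. They were listed by name with earlier results of these cells in view, so their levels across neuron types are given as descriptions. The calls that the fit over all genes makes for them there are listed once, beside the share of all genes called, and support nothing. Tests are given for contrasts on which the choice did not rest.

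By its title the study is about differences in axon growth between types of sensory neuron. The neurons came from the L4 and L5 dorsal root ganglia of both sides of adult naive male Sprague Dawley (SD) rats, and each was drawn into a mouth pipette and sequenced from the 3' ends of its transcripts by a changed form of Smart-seq2, in which a unique molecular identifier (UMI) marks every transcript copy. All 17 samples, each a batch of cells sequenced together, belong to 1 group, with no genotype, injury or drug to compare. The protocols describe neurons picked 15 minutes after plating, these fluorescently labelled, and neurons with neurites picked after 72 hours, and the labels do not tie a batch to a time or an animal.

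Batch 21 held the same counts as batch 20 in 96 of 96 cell columns and was left out, which leaves 16 batches with 1040 cells and no cell name shared between them. Batch totals ran from 3812280 to 26065847 UMIs. Cells with at least 2000 detected genes numbered 967, with 4307 to 1514406 UMIs and a median of 139374. A cell entered a gate when each marker of the gate reached 25 CPM (UMIs scaled to a total of 1000000 per cell or sum) and 2 UMIs, and 480 cells passed exactly 1 of the 8 gates, 373 passed none and 114 passed several and were set aside. The gates held 216 cells for Clmp, 99 for Sst+Nppb, 56 for Ntsr1+Chrna3, 46 for Gzmbl3+Lpar3, 23 for Th, 21 for Trpm8, 16 for Nmu+Lad1 and 3 for Pvalb+Vsnl1. As an example of the threshold, the lowest Clmp level in the Clmp gate was 25.6 CPM, and the highest in a cell of another gate was 131 CPM from fewer than 2 UMIs.

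UMIs were summed over the cells of a gate within a batch where there were at least 3 of them. This gave 15 sums for Clmp, 11 for Sst+Nppb, 11 for Ntsr1+Chrna3, 7 for Gzmbl3+Lpar3, 4 for Th, 2 for Trpm8, 1 for Nmu+Lad1 and none for Pvalb+Vsnl1. Means ± SD below are over these batch sums, in CPM. The batches are the only replicates, and because the labels do not tie a batch to an animal, the spread between them may be technical. The median depth per cell differed between the gates, from 87978 UMIs in Trpm8 and 148876 in Sst+Nppb over 197948.5 in Clmp, 236126 in Th and 348571 in Ntsr1+Chrna3 to 376759.5 in Gzmbl3+Lpar3 and 423940 in Nmu+Lad1. Shares of cells with a UMI are therefore also given after thinning to 30000 UMIs. Cells with fewer UMIs are left out of these thinned shares, and 771 of the 967 cells were deep enough.

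As background, the matrix around a sensory neuron is built mainly by satellite glia, Schwann cells and fibroblasts, and neurons add some of its parts themselves. Hyaluronan, a long sugar chain, is cross-linked into a pericellular coat by hyalectans such as versican (Vcan) and by enzymes such as the product of Tnfaip6 (TSG-6). Matricellular proteins of the CCN, thrombospondin and NELL families sit in the matrix without forming fibres and signal to receptors such as integrins, alpha2delta subunits and Robo proteins. Pleiotrophin (Ptn) and midkine (Mdk) are heparin-binding growth factors that promote neurite growth through Ptprz1, Alk, syndecans and related receptors.

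RefSeq promoter windows on the GRCr8 assembly were found for 6 of the 10 genes (Vcan, Tnfaip6, Aebp1, Abi3bp, Thbs4 and Ptn), and not for Ccn3, Nell2, Mmp9 and Mdk. The 250 bases before the start are shown for Tnfaip6, which leads in Clmp cells, for Aebp1 and Abi3bp, which are low there, and for Ptn. Each is read 5′ to 3′ on the gene's strand. Tnfaip6 lies at chr3:56911148-56911397 (plus strand), Aebp1 at chr14:84952604-84952853 (plus strand), Abi3bp at chr11:57597990-57598239 (minus strand) and Ptn at chr4:66342333-66342582 (minus strand). Capitals mark the letters TGANTCA (the AP-1 motif, the site of Fos and Jun proteins) and GGGCGG (the GC box, CCGCCC on the other strand).
Tnfaip6: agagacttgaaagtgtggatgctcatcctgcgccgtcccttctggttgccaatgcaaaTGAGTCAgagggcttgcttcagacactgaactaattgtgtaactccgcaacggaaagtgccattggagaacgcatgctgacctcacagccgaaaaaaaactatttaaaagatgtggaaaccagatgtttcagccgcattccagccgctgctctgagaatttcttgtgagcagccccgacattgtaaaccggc
Aebp1: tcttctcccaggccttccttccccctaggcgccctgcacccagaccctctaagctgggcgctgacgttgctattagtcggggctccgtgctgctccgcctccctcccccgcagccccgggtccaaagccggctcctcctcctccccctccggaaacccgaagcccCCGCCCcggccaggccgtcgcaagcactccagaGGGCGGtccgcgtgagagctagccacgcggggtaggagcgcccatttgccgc
Abi3bp: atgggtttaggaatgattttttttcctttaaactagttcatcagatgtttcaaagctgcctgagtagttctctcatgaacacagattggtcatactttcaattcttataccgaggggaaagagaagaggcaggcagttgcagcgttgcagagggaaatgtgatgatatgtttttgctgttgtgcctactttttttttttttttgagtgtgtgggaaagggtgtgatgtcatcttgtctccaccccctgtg
Ptn: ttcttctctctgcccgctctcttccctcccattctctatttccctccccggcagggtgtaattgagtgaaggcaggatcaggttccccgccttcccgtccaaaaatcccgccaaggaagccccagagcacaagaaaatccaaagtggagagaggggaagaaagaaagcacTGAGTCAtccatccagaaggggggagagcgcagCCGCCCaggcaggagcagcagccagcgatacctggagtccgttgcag
Both strands were searched for these 2 motifs, for TGACGTCA (the CRE) and for TATAAA, and none of the 4 contains another. Of all 33469 promoter windows of that length, 6.34% hold TGANTCA, 30.5% GGGCGG, 1.59% TGACGTCA and 12.9% TATAAA. The AP-1 letters were found in Tnfaip6, beginning 192 bases before the start, and in Ptn, beginning 80 bases before it. GGGCGG was found in Vcan, Aebp1, Thbs4 and Ptn. These are matches of letters only.

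The gates are ranked here by their batch sums, which leaves out Pvalb+Vsnl1. Tnfaip6 and Ccn3 were highest in Clmp cells, Vcan in Sst+Nppb cells, Aebp1 and Mdk in Ntsr1+Chrna3 cells and Abi3bp in Gzmbl3+Lpar3 cells. Nell2 and Mmp9 were highest in Nmu+Lad1 cells, Ptn in Th cells and Thbs4 in Trpm8 cells, gates that rest on 1 to 4 batch sums. In the fit of all gates, 10 of the 10 genes were called as differing (edgeR quasi-likelihood F-test), beside 23.2% of the 14947 other genes tested. The genes were listed for such differences, so nothing is read from that count. Against the mean of the other gates, Ccn3 and Tnfaip6 were called higher and Mdk lower in Clmp cells, beside 4.88% of all genes called higher and 1.93% lower. Mdk and Vcan were called higher and Ptn lower in Sst+Nppb cells (beside 3.08% and 0.709%), Aebp1 and Mdk higher in Ntsr1+Chrna3 cells (1.63%, and 0.743% lower), Mdk and Mmp9 higher in Gzmbl3+Lpar3 cells (5.57%, and 2.96% lower), and Mmp9 and Nell2 higher in Nmu+Lad1 cells (0.575%, and 0.595% lower), which had a single sum. None of the 10 was called in Th cells (0.268% higher, 0.134% lower) or Trpm8 cells (2.59% higher, 1.83% lower). These calls rest on the values by which the genes were listed and are a description.

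**Figure D1:**
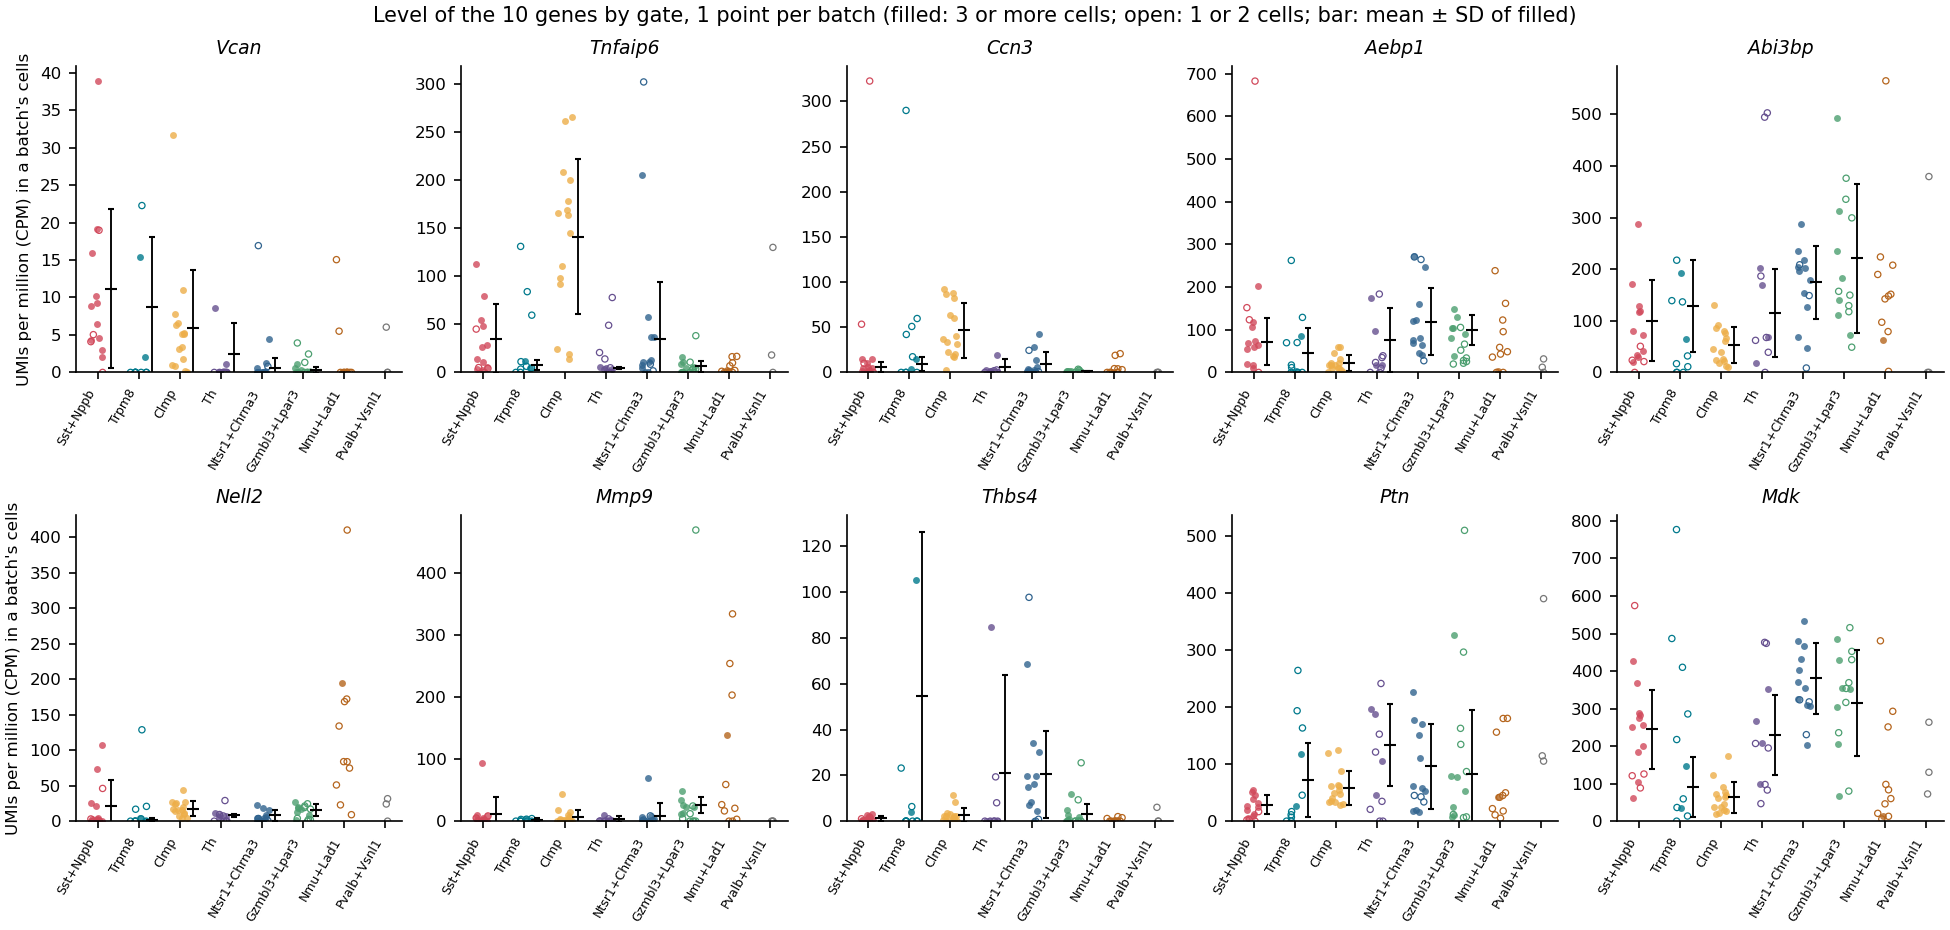
Level of each gene (y axis, CPM, linear, a scale of its own in each panel) in the 8 gates (x axis), 1 point per batch; filled points are batches with 3 or more cells of the gate, open points batches with 1 or 2, and bars the mean ± SD of the filled points (cut at 0). Among the gates with filled points, Tnfaip6 and Ccn3 stand highest in Clmp, with means of 141 and 46.4 CPM. Mdk is low in Clmp (mean of 63.5 CPM) and in the only Nmu+Lad1 sum (14.5 CPM).

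Among the hyaluronan genes, Tnfaip6, whose product transfers heavy chains onto hyaluronan and is known as an inflammation-induced gene, read 141 ± 80.8 CPM (SD, n = 15) in the Clmp gate. The 15 batches ran from 13.8 over a median of 164 to 266 CPM. Batches 32, 33 and 23 were the lowest, with 13.8, 19.4 and 24.2 CPM, and the other 12 read 91.8 CPM or more. The Sst+Nppb gate read 35.2 ± 35.6 CPM (n = 11, 2.01 to 112.5), and Clmp cells were higher in 10 of the 10 batches that held both. The Ntsr1+Chrna3 gate read 35.1 ± 59.6 CPM (n = 11, 0 to 206, median 11.3), where batch 27 alone reached 206 CPM and the next was 57.5. The 7 Gzmbl3+Lpar3 batches read 6.56 ± 5.76 CPM, the 4 Th batches 3.42, 4.01, 4.28 and 5.75 CPM, and the 2 Trpm8 batches 4.21 and 11.5 CPM. The Th range lay wholly below the Clmp range, while the other gates with more than 2 batches overlapped with it.

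Within the Clmp gate Tnfaip6 was uneven from cell to cell. A UMI was found in 160 of 216 cells (74.1%), the median cell read 24.1 CPM, 60 cells (27.8%) read at least 100 CPM and the highest read 1405 CPM. In Sst+Nppb 12 of 99 cells (12.1%) passed 100 CPM, in Ntsr1+Chrna3 5 of 56 (8.93%), in Trpm8 1 of 21, and none did of 46 Gzmbl3+Lpar3, 23 Th or 16 Nmu+Lad1 cells. After thinning, 54.0% of Clmp cells had a UMI, against 38.2% in Ntsr1+Chrna3, 37.0% in Sst+Nppb, 29.4% in Trpm8, 21.7% in Gzmbl3+Lpar3 and 21.1% in Th. Unthinned shares were alike in Clmp and Ntsr1+Chrna3 (74.1% and 75%), the latter being read more deeply.

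Vcan, the large hyaluronan-binding proteoglycan versican, was low throughout. The Sst+Nppb gate read 11.2 ± 10.6 CPM (n = 11, 2.10 to 38.8, median 8.91) and the Clmp gate 5.94 ± 7.75 CPM (n = 15, 0 to 31.6, median 5.10). Sst+Nppb was above Clmp in 7 of 10 shared batches, and their ranges overlapped. Ntsr1+Chrna3 read 0.57 ± 1.35 CPM (n = 11) and Gzmbl3+Lpar3 0.29 ± 0.43 CPM (n = 7), and Sst+Nppb was higher in 9 of 9 and 5 of 5 shared batches. The 2 Trpm8 batches read 2.11 and 15.4 CPM, and the 4 Th batches 0, 0, 1.14 and 8.62 CPM. The share of cells with a UMI was 29.3% in Sst+Nppb and 22.2% in Clmp, against 8.93% in Ntsr1+Chrna3, although the last was read more deeply. After thinning it was 16.05%, 9.60% and 0%.

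Among the matricellular genes, Ccn3, a cysteine-rich regulator of growth and adhesion, had its highest level in the same gate as Tnfaip6. The Clmp gate read 46.4 ± 30.0 CPM (n = 15, 2.62 to 92.7, median 36.7). Gzmbl3+Lpar3 read 1.18 ± 0.78 CPM (n = 7, 0 to 2.47), below Clmp in 6 of 6 shared batches and with ranges that did not overlap. Sst+Nppb read 5.68 ± 5.43 CPM (n = 11) and was below Clmp in 9 of 10 batches. Ntsr1+Chrna3 read 9.14 ± 13.9 CPM (n = 11, 0 to 42.4) and was below Clmp in 7 of 10 batches. The 4 Th batches read 1.43, 1.72, 2.16 and 19.4 CPM and the 2 Trpm8 batches 3.84 and 14.7 CPM. A UMI was present in 56.5% of Clmp cells and, after thinning, in 34.3%. In the Trpm8 gate 35.3% of the 17 cells deep enough to thin had one.

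Nell2, a secreted protein that guides axons through Robo3, was read in 15 of 16 Nmu+Lad1 cells (93.8%, and 87.5% after thinning). The only batch with 3 such cells read 195 CPM. Over all 11 batches with any Nmu+Lad1 cell the mean was 128 ± 112 CPM. The means of the other gates were 21.8 ± 35.5 CPM in Sst+Nppb (n = 11, median 3.48), 17.7 ± 10.5 in Clmp (n = 15), 15.4 ± 8.44 in Gzmbl3+Lpar3 (n = 7), 8.02 ± 7.87 in Ntsr1+Chrna3 (n = 11) and 8.01 ± 2.71 in Th (n = 4). These 5 gates overlapped with one another. The 2 Trpm8 batches read 0 and 3.84 CPM, below the ranges of Clmp and Th and within those of the other 3 gates. In Sst+Nppb 1 cell gave 56.6% of all Nell2 UMIs, and the thinned shares were 13.6% there, 25.3% in Clmp and 28.3% in Gzmbl3+Lpar3.

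Thbs4, the matrix thrombospondin that binds the alpha2delta-1 calcium channel subunit, rested on few cells in the gates where it stood highest. The 2 Trpm8 batches read 105 CPM (batch 24) and 3.84 CPM (batch 31), and 1 of the 21 Trpm8 cells gave 90.7% of that gate's Thbs4 UMIs. Of the 4 Th batches, batch 33 read 84.9 CPM and the other 3 read 0, and 1 of 23 cells gave 94.4% of the UMIs. In Ntsr1+Chrna3 the level was spread over more cells, with 20.4 ± 19.1 CPM (n = 11, 0 to 68.4, median 16.4) and a UMI in 30 of 56 cells (53.6%). The remaining gates read 3.19 ± 4.14 CPM (Gzmbl3+Lpar3, n = 7), 2.65 ± 3.16 CPM (Clmp, n = 15) and 1.23 ± 1.10 CPM (Sst+Nppb, n = 11). Ntsr1+Chrna3 was above Sst+Nppb in 8 of 9 and above Clmp in 8 of 10 shared batches. After thinning 20.0% of Ntsr1+Chrna3 cells had a UMI, against 4.55% of Clmp and 3.70% of Sst+Nppb cells. Without batch 24 the Trpm8 level lay 0.01 below the mean of the other gates on the log2(CPM + 10) scale (-0.01), against 1.496 above it with all batches.

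Aebp1 and Abi3bp were low in the Clmp gate, and also in the only Nmu+Lad1 sum, which read 3.63 CPM of Aebp1 and 62.8 CPM of Abi3bp. Aebp1 encodes a secreted collagen-binding protein with a carboxypeptidase-like domain. It read 119 ± 79.0 CPM in Ntsr1+Chrna3 (n = 11, 40.9 to 274, median 81.0), 99.1 ± 35.7 in Gzmbl3+Lpar3 (n = 7, 38.0 to 149, median 104) and 72.3 ± 55.0 in Sst+Nppb (n = 11, 11.1 to 203, median 63.9). The Clmp gate read 22.1 ± 19.1 CPM (n = 15, 0.69 to 60.6, median 17.4). Clmp was the lower gate in 9 of 10 batches shared with Ntsr1+Chrna3, in 6 of 6 shared with Gzmbl3+Lpar3 and in 10 of 10 shared with Sst+Nppb. The top 3 gates overlapped with one another. The 4 Th batches fell into 17.1 and 17.1 against 96.2 and 175 CPM, and the 2 Trpm8 batches read 3.84 and 86.3 CPM. After thinning, 74.5% of Ntsr1+Chrna3, 67.9% of Sst+Nppb and 65.2% of Gzmbl3+Lpar3 cells had an Aebp1 UMI, against 24.7% of Clmp cells.

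Abi3bp, a matrix protein that binds the SH3 domain of Abi3, read 221 ± 144 CPM in Gzmbl3+Lpar3 (n = 7, 72.0 to 494, median 183) and 175 ± 71.3 in Ntsr1+Chrna3 (n = 11, 47.0 to 288, median 197). These neighbours did not separate, as Gzmbl3+Lpar3 was higher in 3 of 6 shared batches. The Sst+Nppb gate read 100 ± 78.7 CPM (n = 11, 19.6 to 287, median 80.5) and the Clmp gate 53.0 ± 35.7 (n = 15, 10.8 to 131, median 46.1). Clmp was below Ntsr1+Chrna3 in 10 of 10 shared batches, below Gzmbl3+Lpar3 in 5 of 6 and below Sst+Nppb in 8 of 10. The 4 Th batches read 18.7, 68.4, 168 and 203 CPM and the 2 Trpm8 batches 65.3 and 192 CPM. Thinned shares ran from 38.4% in Clmp to 80.4% in Gzmbl3+Lpar3.

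Mmp9, the gelatinase that cuts collagen IV and other matrix proteins, was read in 12 of 16 Nmu+Lad1 cells. The only batch with 3 of these cells read 139 CPM, and over all 11 batches with any the mean was 96.1 ± 118 CPM. Gzmbl3+Lpar3 read 25.8 ± 12.7 CPM (n = 7, 12.1 to 49.1, median 22.6), above Clmp in 5 of 6 and above Ntsr1+Chrna3 in 5 of 6 shared batches. The other gates had medians of at most 4.06 CPM over their batches. Sst+Nppb read 12.3 ± 27.4 CPM (n = 11, 1.01 to 94.5), Clmp 7.38 ± 11.3 (n = 15) and Ntsr1+Chrna3 8.55 ± 20.3 (n = 11). A single cell gave 47.3%, 40.1% and 80.1% of the Mmp9 UMIs in these 3 gates. After thinning, 8 of 16 Nmu+Lad1 and 34.8% of Gzmbl3+Lpar3 cells had a UMI, against 7.07% to 8.64% in those 3 gates.

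Of the heparin-binding growth factors, Mdk showed a wide gap between gates. It read 380 ± 94.6 CPM in Ntsr1+Chrna3 (n = 11, 202 to 533, median 371), 314 ± 140 in Gzmbl3+Lpar3 (n = 7, 67.9 to 487, median 352), 245 ± 105 in Sst+Nppb (n = 11, 62.3 to 427, median 257) and 63.5 ± 41.7 in Clmp (n = 15, 20.1 to 173, median 62.1). The Ntsr1+Chrna3 and Clmp ranges did not overlap, and Clmp was lower in 10 of 10 shared batches. Clmp was also the lower gate in 6 of 6 batches shared with Gzmbl3+Lpar3, in 10 of 10 shared with Sst+Nppb and in 4 of 4 shared with Th. The 4 Th batches read 97.9, 207, 266 and 351 CPM and the 2 Trpm8 batches 34.6 and 147 CPM. The only Nmu+Lad1 sum read 14.5 CPM, below the Clmp range. Sst+Nppb and Th, neighbours in the order, overlapped. Every one of the 56 Ntsr1+Chrna3 cells had an Mdk UMI and 89.3% of them read at least 100 CPM, against 15.3% of Clmp cells. After thinning 98.2% of Ntsr1+Chrna3 and 43.9% of Clmp cells had a UMI. The lead of Ntsr1+Chrna3 over the mean of the other gates was 1.77 on the log2(CPM + 10) scale and 0.80 with at least 5 cells per sum.

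Ptn had another order. The 4 Th batches read 46.4, 105, 188 and 198 CPM, a mean of 134 ± 71.9. Ntsr1+Chrna3 read 96.5 ± 74.5 CPM (n = 11, 15.7 to 227, median 62.3), Gzmbl3+Lpar3 82.9 ± 111 (n = 7, 6.46 to 327, median 53.5), Clmp 58.3 ± 30.4 (n = 15, 28.9 to 125, median 48.6) and Sst+Nppb 29.1 ± 16.9 (n = 11, 4.97 to 54.5, median 27.4). All neighbours in this order overlapped. Sst+Nppb was below Th in 3 of 3, below Ntsr1+Chrna3 in 7 of 9 and below Clmp in 7 of 10 shared batches. The 2 Trpm8 batches read 26.9 and 118 CPM. After thinning 89.5% of Th cells had a Ptn UMI, 72.7% of Ntsr1+Chrna3, 43.4% of Clmp and 33.3% of Sst+Nppb cells. With batches of 1 or 2 cells counted as well, the Th lead over the mean of the other gates was 0.14 on the log2(CPM + 10) scale, against 1.14 with at least 3 cells. The Pvalb+Vsnl1 gate enters that mean only in the former setting, and 3 of its 3 cells read at least 100 CPM of Ptn.

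**Figure D2:**
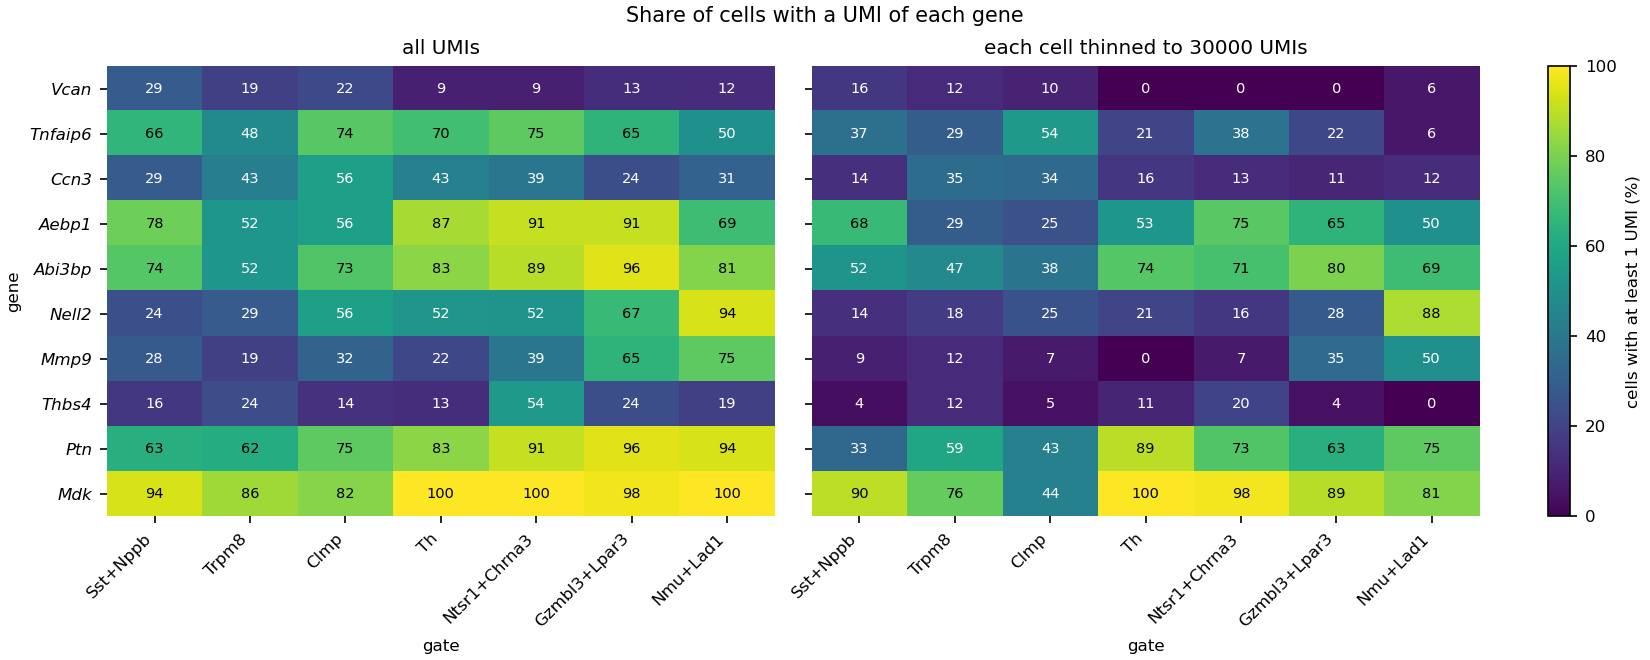
Share of cells (%, colour and number) with at least 1 UMI of each gene (y axis) in 7 gates (x axis). All UMIs are used on the left, and cells thinned to 30000 UMIs on the right, where cells with fewer UMIs are left out. The 3 Pvalb+Vsnl1 cells are left out of both. After thinning, Mdk was found in 98.2% of Ntsr1+Chrna3 and 43.9% of Clmp cells, and Tnfaip6 in 54.0% of Clmp cells.

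The 9 cells with both Pvalb, a marker of proprioceptive neurons, and Vsnl1 came from 6 batches, and 6 of them also passed the Clmp gate. They gave no batch sum. Ptn and Mdk each had UMIs in 9 of the 9 cells, Tnfaip6, Aebp1 and Nell2 in 7, Abi3bp in 5 and Vcan in 4. Ccn3, although highest in the Clmp gate, was found in 1 of the 9 cells (1.14 CPM pooled), as was Thbs4. Mmp9 was found in none (which allows a total of up to 3 UMIs over the 9 cells). Pooled over the 9 cells, Ptn read 171 CPM, Abi3bp 113, Tnfaip6 88.0 and Mdk 62.3 CPM.

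Over the 51 sums of batch and gate, some of the 10 genes formed pairs, given as Pearson correlations of log2(CPM + 10) without a p because the sums share batches. Tnfaip6 and Ccn3 had r = 0.62, Aebp1 and Mdk 0.62, Nell2 and Mmp9 0.58, Abi3bp and Mdk 0.44 and Aebp1 and Abi3bp 0.41. Tnfaip6 and Mdk had r = -0.48 and Ccn3 and Mdk -0.47. With Ptn the other genes had r between -0.14 (Abi3bp) and 0.16 (Nell2), apart from Vcan (-0.34). Vcan reached at most 0.23 (with Tnfaip6) and Thbs4 at most 0.28 (with Abi3bp). Across the 216 single Clmp cells the pairs were weaker, with r = 0.10 for Tnfaip6 and Ccn3, 0.07 for Aebp1 and Mdk and 0.20 for Nell2 and Mmp9.

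**Figure D3:**
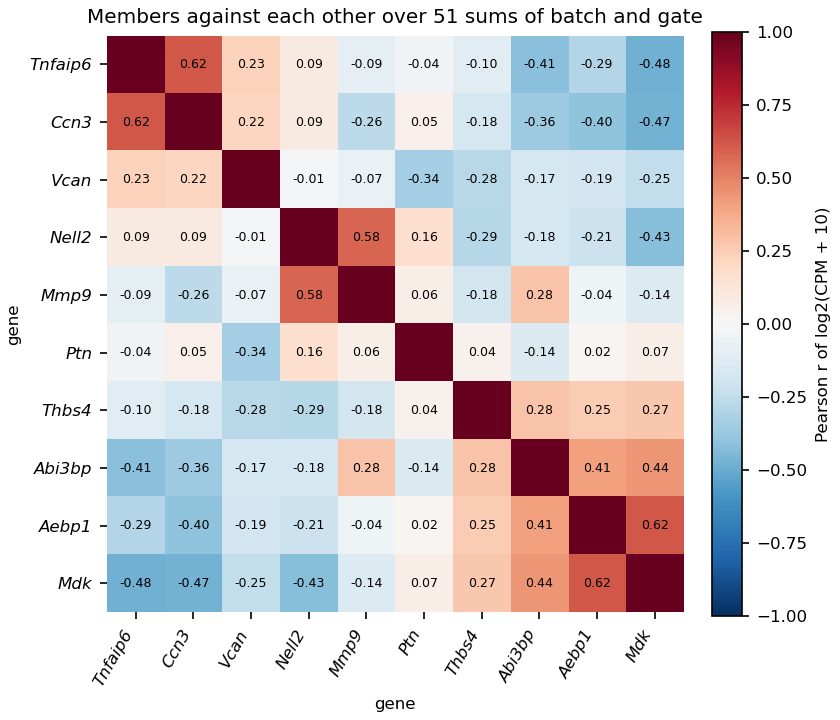
Pearson correlation (colour and number) of log2(CPM + 10) between each pair of the 10 genes over 51 sums of batch and gate; both axes list the genes. Tnfaip6 and Ccn3 (0.62) and Aebp1 and Mdk (0.62) form positive pairs, and Tnfaip6 and Mdk are negative (-0.48).

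Among genes with a mean of at least 20 CPM over the sums, the 3 most like each member were named by the same correlation over the 51 sums. Tnfaip6 was nearest to Kit (r = 0.73), the stem cell factor receptor, then to Ugt1a6 (0.72) and Rnd3 (0.71). Ccn3 was nearest to Clmp itself (0.74), Cd9 (0.71) and Slc5a7 (0.70), the choline transporter. Mdk was nearest to Anxa1 (0.81), Tmem45b (0.78) and Gch1 (0.77), the first enzyme of tetrahydrobiopterin synthesis, and Aebp1 to LOC108348140 (0.72), Gch1 (0.72) and Slc35a1 (0.70). Abi3bp was nearest to Nrsn2 (0.66), Sct (0.62) and Ctla2a (0.62), Nell2 to Camk2d (0.64), Arhgap20 (0.59) and Fhl2 (0.59), and Mmp9 to Fhl2 (0.67), Cldn23 (0.63) and Efnb2 (0.61). Thbs4 was nearest to the gate marker Chrna3 (0.68), 5-8S-rRNA-14 (0.54) and Mfge8 (0.54), Ptn to Tmem35a (0.62), Tsc22d3 (0.58) and Thap3 (0.57), and Vcan to Adgrg1 (0.58), Frs2 (0.57) and Enho (0.55).

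Whether the RNA could be read from glia or fibroblasts carried along with a neuron was checked next. Neuron markers summed to 5364 to 12407 CPM in the gates. A list of core glial genes, with Fabp7, Sox10, Kcnj10, Prx, Mag and Mbp among them, summed to 22.4 CPM in Pvalb+Vsnl1 and to 39.1 to 124 CPM in the other gates, of which Mbp gave 28.1 to 89.6 CPM in those gates. A wider list that adds Apoe, Pmp22, Cnp, S100b, Gfap and Ncmap, some of which neurons also express, summed to 967 to 2241 CPM. The satellite glia channel Kcnj10 was at 0 in 7 of the 8 gates and at 0.29 CPM in Sst+Nppb. The fibroblast genes summed to 14.9 to 106 CPM, with Fbln1 at 91.1 CPM in Nmu+Lad1, and the other genes of the list lay between 0 and 15.2 CPM in the 7 gates with more than 3 cells. Col1a1 read 3.70 to 15.2 CPM there (with UMIs in 90 of 216 Clmp cells), Pi16 up to 10.7 and Mfap5 up to 10.4 CPM. Mgp and Pdgfra read up to 6.74 and 6.60 CPM, both in Clmp, and Col3a1 up to 3.30 CPM. Dcn, Lum and Ogn were each at or below 0.91 CPM.

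The 49 cells richest in core glial RNA (the top 5%, 576 to 13049 CPM, median 35489 UMIs per cell) were then set beside the other 918 cells. Pooled CPM of Abi3bp was 59.1 in the glia-rich cells and 120 in the others, of Aebp1 44.1 and 64.2, of Mdk 143 and 195, of Mmp9 6.57 and 18.3, of Nell2 19.2 and 26.6, and of Thbs4 4.69 and 7.99. Tnfaip6 read 72.3 and 63.6 CPM, Vcan 5.16 and 4.41, Ccn3 28.4 and 19.2, and Ptn 110 and 79.4 CPM. So 6 of the 10 genes were lower in the glia-rich cells and 4 were higher, with no share over all genes beside this count. The glia-rich cells were read less deeply, with a median of 35489 UMIs against 145924 in the others. Of the glia-rich cells 16 of 49 passed a single gate, against 464 of 918 of the others. The genes differ in level between gates, so these directions do not tell where the RNA came from. These pooled values carry no test. In the 49 cells richest in fibroblast RNA, Nell2 read 54.6 CPM against 25.5 in the others, Ptn 139 against 78.2, Vcan 8.47 against 4.30 and Ccn3 28.9 against 19.1, and the other 6 genes were lower there. Cells of all gates were pooled here too, with median depths of 49301 and 143333.5 UMIs, so these directions have the same limit. Fbln1, a gene of the fibroblast list, read 158 CPM in the only Nmu+Lad1 sum, against 17.0 in the mean of the other gates. Nmu+Lad1 is also the gate where Nell2 was highest.

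Cells of a gate within a batch were also split at the median of a score, and the 40 pairs of high and low cells (180 and 206 cells) were tested over all genes with edgeR, with gate and batch as a block. For glial RNA the median over pairs was 121 CPM of core glial genes in the high and 28.7 CPM in the low cells. No gene was called of 8843 tested (0% higher and 0% lower, 285 at an unadjusted p under 0.05, and 2 called by DESeq2). The 4 genes of the wider glial list that were tested outside the score were not called either (median log2 fold change 0.38). A lack of calls in this split therefore does not tell where the RNA of a gene came from. Of the 7 members with enough counts, Tnfaip6 read 53.8 CPM in the high and 85.2 CPM in the low cells (log2 fold change -0.66 ± 0.28 SE, p = 0.0232, adjusted p = 0.999, higher in 16 and lower in 23 of 40 pairs). It was called without the filter on low counts (-0.67, adjusted p = 0.0115). Ptn read 74.2 and 64.1 CPM (0.52 ± 0.25, p = 0.0421, adjusted p = 0.999, higher in 25 of 40 pairs). The other 5 had log2 fold changes from -0.45 ± 0.37 (Nell2) to 0.27 ± 0.27 (Aebp1). Vcan, Mmp9 and Thbs4 had too few counts to be tested.

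For fibroblast RNA the median over pairs was 69.8 CPM of the fibroblast genes in the high and 19.1 CPM in the low cells. Again no gene was called of 8932 (0% higher and 0% lower, 253 at an unadjusted p under 0.05, and 1 called by DESeq2). The fibroblast genes formed the score and were left out of this count, so the lack of calls has the same limit. Ccn3 had the largest difference among the 7 members tested, with 24.3 against 18.7 CPM (log2 fold change 0.63 ± 0.42, adjusted p = 0.999, higher in 25 of 40 pairs). The other 6 lay between -0.11 ± 0.32 (Tnfaip6) and 0.24 ± 0.23 (Aebp1).

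**Figure D4:**
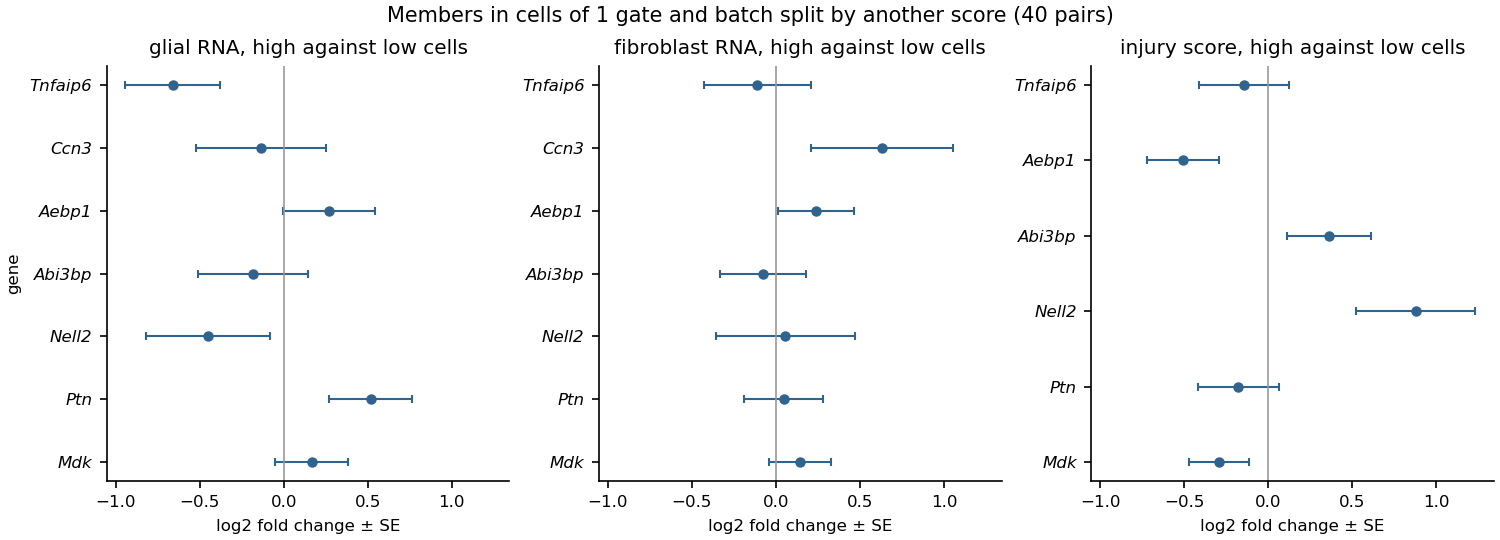
Log2 fold change (x axis, high minus low cells, point ± SE) of the members with enough counts (y axis) between cells of 1 gate and batch split by glial RNA, fibroblast RNA or injury score, each over 40 pairs. No member passed the test in these fits, and the estimates farthest from 0 are Tnfaip6 for glial RNA (-0.66), Ccn3 for fibroblast RNA (0.63) and Nell2 for the injury score (0.88).

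The third split used an injury score, the sum of Atf3, Sprr1a, Gap43, Sox11, Jun and Gal, genes known to rise in sensory neurons after axotomy and in culture. The median over pairs was 7300 CPM of these genes in the high and 4266 CPM in the low cells. Depth moved with the score, with a median of 103424 UMIs per cell in the high and 374948 in the low sums, and core glial RNA was 70.6 and 55.3 CPM. Their part in the results was not tested. Over all genes, 749 of 8304 (9.02%) were called higher and 623 (7.5%) lower in high cells, with a median log2 fold change of -0.12.

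None of the 6 members tested in this split was called. Nell2, at 19.8 CPM in high and 13.4 CPM in low cells, came nearest (log2 fold change 0.88 ± 0.36, adjusted p = 0.0837, higher in 23 and lower in 13 of 40 pairs). It passed when batch 26 was left out (1.12, adjusted p = 0.028). Aebp1 read 51.1 CPM in high and 76.4 CPM in low cells (-0.51 ± 0.21, adjusted p = 0.0976, lower in 29 of 40 pairs) and passed when batch 25 was left out (-0.62, adjusted p = 0.0441). Mdk had -0.29 ± 0.18, Abi3bp 0.36 ± 0.25, Ptn -0.18 ± 0.24 and Tnfaip6 -0.15 ± 0.27, with adjusted p from 0.262 to 0.741. DESeq2 called Nell2 (adjusted p = 0.0298) and Aebp1 (adjusted p = 0.029). Without the filter on low counts Nell2 (adjusted p = 0.0283), Aebp1 (adjusted p = 0.00946) and Mdk (-0.33, adjusted p = 0.0211) were called, and with RLE factors Aebp1 was (adjusted p = 0.0457).

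Whether the injury score went with different changes in Clmp and in Sst+Nppb cells was tested as an interaction, and no gene of 8205 was called (0%, 562 at an unadjusted p under 0.05; DESeq2 was not run on this contrast). Mdk had log2 fold changes of -1.12 ± 0.31 in Clmp and 0.17 ± 0.34 in Sst+Nppb cells, a difference of -1.30 ± 0.46 (p = 0.00804, adjusted p = 0.646, edgeR quasi-likelihood). Ptn had -0.74 ± 0.39 and 0.99 ± 0.56, a difference of -1.73 ± 0.68 (p = 0.0151, adjusted p = 0.654). The other 5 members tested had adjusted p of 0.827 or more.

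Other genes of the matrix were read from 6 lists chosen by role, with earlier results of these cells known. Genes differing among the gates numbered 8 of 24 tested hyaluronan and hyalectan genes, 12 of 28 metalloproteinases, plasminogen activators and inhibitors, 6 of 19 genes of the CCN, thrombospondin and NELL families with receptors, 10 of 22 receptors of pleiotrophin and midkine, 9 of 27 collagens and laminins, and 15 of 41 other secreted glycoproteins, beside 23.2% of all genes. Each gate was then compared with the equally weighted mean of the other 6 gates, which includes the single Nmu+Lad1 sum, so a gene at 0 there has a large fitted fold change and the CPM are the better guide. Such a gene can also hardly be called lower in another gate. Over the 7 gates this gave 48 calls higher and 18 lower in the lists. Over all genes, higher calls also outnumbered lower ones in each gate except Nmu+Lad1 (0.575% higher, 0.595% lower). Their shares ran from 0.268% higher and 0.134% lower in Th to 5.57% and 2.96% in Gzmbl3+Lpar3. The excess of higher calls was therefore not particular to the lists.

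Receptors of pleiotrophin and midkine bear on Ptn and Mdk. Alk, a receptor tyrosine kinase for both, read 2.37 ± 2.57 CPM in Clmp cells (n = 15, 0 to 10.3), the gate where Mdk was low. It read 45.5 ± 33.8 CPM in Gzmbl3+Lpar3 (n = 7), 38.6 ± 19.6 in Th (n = 4, 10.9 to 56.7), 30.3 ± 11.2 in Ntsr1+Chrna3 (n = 11) and 13.1 ± 15.6 in Sst+Nppb (n = 11). The 2 Trpm8 batches read 0 and 10.5 CPM of Alk and the only Nmu+Lad1 sum 6.04 CPM. Mdk was low in these gates as well, with a mean of 91.0 CPM in Trpm8 and 14.5 CPM in the Nmu+Lad1 sum. Alk was lower in Clmp than in the mean of the other gates (log2 fold change -2.72 ± 0.47, edgeR adjusted p = 7.81e-05, lower in 14 of 14 batches), beside 1.93% of all genes called lower there. The call was lost without batch 24 (-1.58), after thinning (-1.67), at a gate threshold of 50 CPM (-1.46) and with at least 1 cell per sum (-1.72). Batch 24 is 1 of the 2 Trpm8 batches, of which 1 read 0 CPM of Alk. Where another gate reads 0, the fitted mean of the other gates has no lower bound, and the test can hardly call a gene lower. The loss without batch 24 therefore does not tell whether low Alk in Clmp rests on that batch. In Th cells Alk was higher (3.17 ± 0.70, adjusted p = 0.022, 4 of 4 batches), beside 0.268% of all genes, a call lost without any of batches 25, 33 and 34 (2.53 to 3.25, adjusted p from 0.0681 to 0.182) and in 6 of 10 other alternatives (1.11 at 10 CPM to 4.43 with at least 5 cells per sum, adjusted p from 0.069 to 1.00).

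Of the 22 receptor genes, Nrp1, a co-receptor of semaphorins and growth factors, was higher in Clmp cells (24.5 CPM against 9.91 in the mean of the other gates, log2 fold change 1.97 ± 0.56, edgeR adjusted p = 0.0212, 12 of 14 batches), as was Ptprd, a receptor tyrosine phosphatase (7.97 against 0.855 CPM), beside 4.88% of all genes. The call of Nrp1 was lost at 10 CPM (1.39, adjusted p = 0.207) and without the cells above 132 CPM of core glial genes (2.11, adjusted p = 0.0606). Lrp1, the large endocytic receptor, was called lower in Clmp cells along with Alk (23.6 against 42.1 CPM), a call kept in 9 of 16 fits that each left out 1 batch and lost without any of batches 20, 24, 26, 27, 32, 34 and 35 (-0.75 to -0.58, adjusted p from 0.0502 to 0.2), and in 6 of 11 other alternatives (-0.80 to -0.25). Ptprf, a receptor tyrosine phosphatase, was lower in Sst+Nppb cells (91.2 against 170 CPM, -0.89 ± 0.15, adjusted p = 0.000225, lower in 10 of 11 batches), beside 0.709% of all genes, a call lost at 10 CPM (-0.72, adjusted p = 0.0549). Ptprz1, the main pleiotrophin receptor, was not called in any gate, with means from 11.3 ± 9.10 CPM in Gzmbl3+Lpar3 (n = 7) to 28.1 ± 17.7 CPM in Th (n = 4) among the gates with more than 2 batches. Ptprd and Ptprz1 were chosen after their values were seen.

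**Figure D5:**
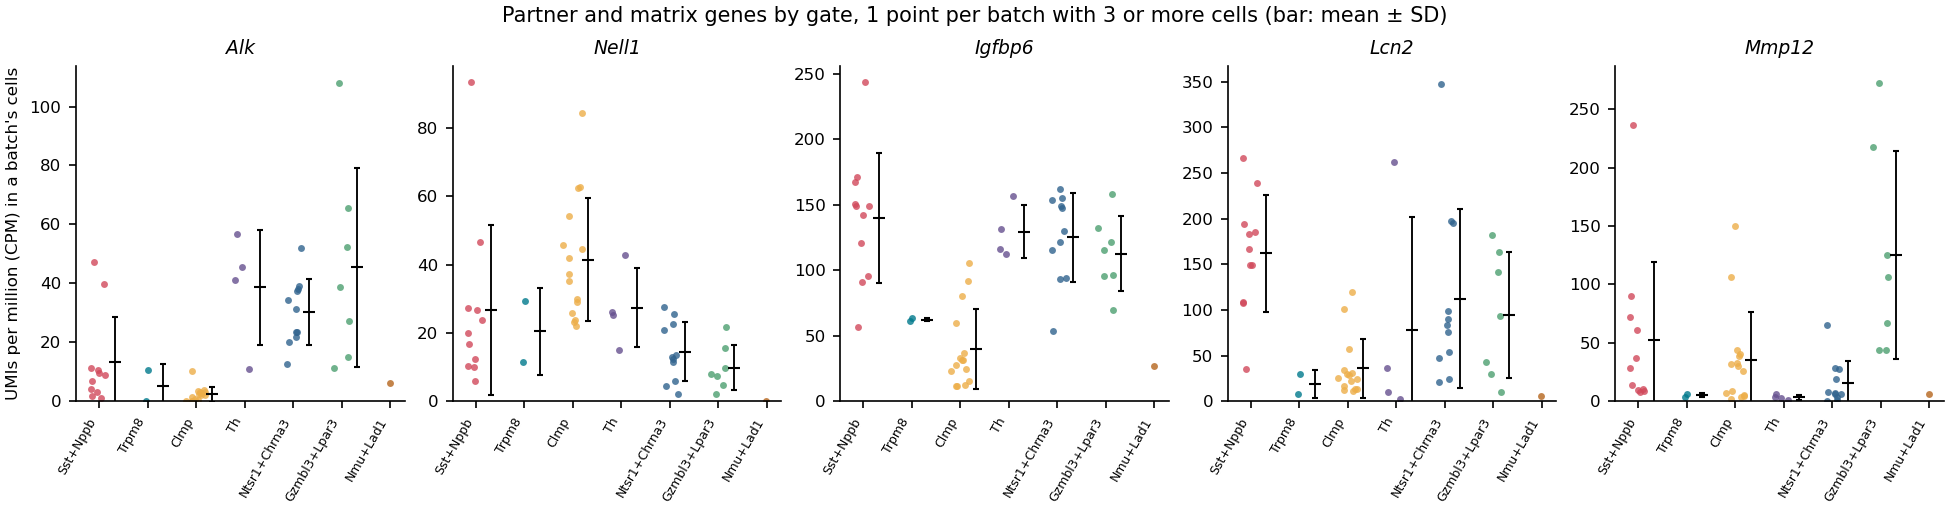
Level of 5 genes outside the 10 (y axis, CPM, linear, a scale of its own in each panel) in 7 gates (x axis), 1 point per batch with 3 or more cells and bars for mean ± SD (cut at 0). Alk and Igfbp6 are low in the Clmp gate (means of 2.37 and 39.8 CPM) and in the only Nmu+Lad1 sum (6.04 and 26.6 CPM). Mmp12 is highest in Gzmbl3+Lpar3, with a mean of 125 CPM.

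Among the metalloproteinases, plasminogen activators and inhibitors, 3 of 28 were higher in Gzmbl3+Lpar3 cells, the gate in which Mmp9 was also high, beside 5.57% of all genes. Mmp12, macrophage elastase, read 125 CPM there against 19.6 in the mean of the other gates (log2 fold change 3.57 ± 0.60, edgeR adjusted p = 0.00012, 7 of 7 batches). Timp1, an inhibitor of metalloproteinases, read 1323 against 863 CPM (0.77 ± 0.16, adjusted p = 0.00107) and was named after its values were seen. Mmp16 and Mmp24, membrane-bound metalloproteinases, were lower (16.6 against 79.7 and 73.9 against 102 CPM). In Sst+Nppb cells 4 of 28 were higher, among them Plat, the tissue plasminogen activator (168 against 81.4 CPM, 1.22 ± 0.23, edgeR adjusted p = 0.00086), beside 3.08% of all genes. Plat was also named after its values were seen. The call of Mmp24 was lost without any of batches 25, 26, 28-3, 31 and 32 (-0.60 to -0.36, adjusted p from 0.0545 to 0.257) and kept in 11 of 16 fits that left out 1 batch, and the calls of Mmp12, Timp1, Mmp16 and Plat in 16 of 16. At a gate threshold of 10 CPM the calls of Mmp16 (-0.93), Mmp24 (-0.23) and Plat (1.03) were lost, and with at least 5 cells per sum those of Mmp16 (-1.09), Mmp24 (-0.18) and Timp1 (0.42).

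In Clmp cells, where Tnfaip6 and Ccn3 stood highest, 5 of 27 collagens and laminins were called higher and none lower, beside 4.88% of all genes higher and 1.93% lower, with a median log2 fold change of 1.58 over the list and 0.19 over all genes. The median of this list was also above that of all genes in Sst+Nppb (1.01 against 0.13), Ntsr1+Chrna3 (0.60 against 0.15), Gzmbl3+Lpar3 (0.58 against 0.11) and Th (0.26 against 0.08), and below it in Trpm8 (-1.30 against -0.29) and in the single Nmu+Lad1 sum (-1.70 against -0.16). Genes at 0 in these last gates, which have the fewest sums, lower the fitted mean of the others for every other gate. The medians therefore do not show a trait of Clmp cells. The 5 genes called higher in Clmp cells were Col4a1, a chain of basement membrane collagen (38.4 against 19.2 CPM, 2.66 ± 0.62, edgeR adjusted p = 0.00408, 13 of 14 batches), Col5a3 (171 against 89.9 CPM, 0.96 ± 0.23, adjusted p = 0.00606, 12 of 14 batches), Col18a1, Lama4 and Lamb1. Col4a1 stood higher still in the only Nmu+Lad1 sum, with 77.4 CPM against 12.7 in the mean of the other gates (log2 fold change 4.33). Col18a1, Lama4 and Lamb1 were named after their values were seen, and their CPM are not given. How near to 0 they stand is therefore not shown, and their fold changes are not read as sizes. Lama4 lost its call without any of batches 24, 25 and 31 (3.35 to 3.56, adjusted p from 0.0606 to 0.0762) and Lamb1 without batch 25 (2.12, adjusted p = 0.0527) or 31 (2.70, adjusted p = 1.00), and the other 3 kept theirs in 16 of 16 fits that left out 1 batch. Without the cells above 132 CPM of core glial genes, Lama4 (3.62, adjusted p = 0.0592) and Lamb1 (2.13, adjusted p = 0.122) lost their calls. At 10 CPM Lama4 (2.76), Lamb1 (2.21) and Col18a1 (3.16) did, and Col18a1 also with at least 5 cells per sum (1.18). Of the family of Ccn3, Thbs4 and Nell2, 2 of 19 were higher in Clmp cells, Ccn1 and Nell1. Ccn1 was also named after its values were seen, without its CPM, so its fold changes have the same limit. Nell1, the paralog of Nell2, read 41.5 against 16.5 CPM (2.75 ± 0.51, adjusted p = 0.000272, 14 of 14 batches). Of the other secreted proteins, 5 of 41 were higher and 2 lower in Clmp cells. Vwa1, a matrix protein, was higher (28.4 against 10.5 CPM, 1.99 ± 0.46, adjusted p = 0.00338, 14 of 14 batches), and Igfbp6, which binds insulin-like growth factor II, was lower (39.8 against 99.2 CPM, -1.48 ± 0.24, adjusted p = 2.77e-05, lower in 14 of 14 batches). After thinning, the calls of Nell1 (1.80, adjusted p = 0.0553), Ccn1 (1.98, adjusted p = 0.304) and Igfbp6 (-1.23, adjusted p = 0.0678) were lost, and at 50 CPM those of Ccn1 (2.13) and Vwa1 (0.97). The call of Ccn1 was also lost with at least 5 cells per sum (1.09).

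Olfm1, a secreted glycoprotein of neurons, had 323 ± 60.3 CPM in Clmp cells (n = 15, 224 to 434), above the range of Gzmbl3+Lpar3 (n = 7, 37.9 to 142) and that of Sst+Nppb (n = 11, 76.1 to 167). It was named after its values were seen. In Gzmbl3+Lpar3 cells Fstl1, a secreted follistatin-like protein, was lower (88.2 against 213 CPM, -1.39 ± 0.32, edgeR adjusted p = 0.00399, lower in 7 of 7 batches), beside 2.96% of all genes. In Sst+Nppb cells Lcn2, lipocalin 2, was higher (162 against 57.6 CPM, 2.49 ± 0.43, adjusted p = 0.000213, 10 of 11 batches). Its Sst+Nppb batches ran from 35.2 to 266 CPM and overlapped with other gates. Ntsr1+Chrna3 read 112 ± 97.9 CPM (n = 11, 21.0 to 347), Gzmbl3+Lpar3 94.6 ± 69.2 (n = 7, 9.51 to 182), Clmp 36.0 ± 32.4 (n = 15, 11.2 to 119) and Th 2.86 to 262 CPM (n = 4).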

How the data were processed

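Single rat sensory neurons were read in 17 labelled batches. The authors deposited whole-number counts of UMIs for every gene in each cell. The submitters' processing notes name UMI-tools, STAR, Subread, featureCounts, SAMtools and the build Rnor_6.0, with no versions. Batch 21 repeated batch 20 and was not used. The genes, gates and lists were chosen with earlier results of these data known.

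Counts were summed per batch and gate (at least 3 cells) and tested over all genes with edgeR 4.0.16 in R 4.3.3 (quasi-likelihood, gate and batch as terms, TMM factors, filterByExpr with a minimum count of 10, Benjamini-Hochberg threshold 0.05), with DESeq2 1.42.0 as an alternative. The high and low splits used cells above against at or below the median score, at least 4 cells with 2 on each side, and gate within batch as a block. CPM takes no account of gene length, so levels are compared within a gene only. P-values of the gate comparisons measure the spread between batches, and no label ties a batch to an animal. Those of the high and low splits measure the spread between pairs of high and low cells, each from a gate within a batch. Pairs of different gates can share a batch and were treated as separate. Intervals and floors cover counting error only. The rule for list genes named up to 2 called genes per list, gate and direction at 20 CPM or more, and others are said to be chosen after their values were seen. The fits were tested on simulated counts. Each choice was varied 1 at a time, with each batch left out in turn. Some genes of the lists are not reported here.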

Additional observations from a re-analysis of the deposited data

Results flagged for a closer look

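In groups of 4 to 10 batches, 5 of the 20 groups tested held a batch far from the others by Dixon's 95% critical value. Chance flags about 1 in 20 where values are normally distributed. CPM of rare genes stop at 0, and a single batch above 0 is always flagged, so the count is not read against that rate. In the Th gate (4 batches) Vcan read 8.62 CPM in batch 34 and 0 to 1.14 in the others, Ccn3 19.4 CPM in batch 25 and 1.43 to 2.16 in the others, and Thbs4 84.9 CPM in batch 33 and 0 in the others. In the Gzmbl3+Lpar3 gate (7 batches) Thbs4 read 11.8 CPM in batch 22 and 0 to 4.84 in the others, and Ptn 326.5 CPM in batch 28-3 and 6.46 to 79.3 in the others.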

How the results depend on the processing

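No paired analysis was possible because all samples form 1 group, so no replicate numbers are shared between groups of samples, and the pairs in the text are cells of 1 gate within 1 batch. The number of genes differing among the gates (3463) was 2287 with at least 5 cells per sum, 1630 with a gate threshold of 10 CPM, 1878 after thinning and 2649 to 3467 without 1 batch. Calls in the matrix lists, 48 higher and 18 lower, were 80 higher with at least 1 cell per sum (chosen after seeing the data), 26 with at least 5, 75 without a batch term, 88 and 35 with cells of several gates placed by their highest markers, 24 and 8 at 10 CPM, 101 and 43 without a filter on low counts, 25 and 11 after thinning, and 37 to 52 and 14 to 21 without 1 batch. The gate with the highest level was kept for 6 of the 10 genes with at least 5 cells per sum, 5 at 10 CPM, 4 at 50 CPM and 8 to 10 without 1 batch. Calls by glial RNA (0) were 2 with DESeq2, 3 with at least 8 cells, 35 without a filter and 0 to 2 without 1 batch, those by fibroblast RNA (0) were 1, 27 without a filter and 0 to 0 without 1 batch, and those by injury score (1372) were 2597 with DESeq2, 730 after thinning and 1129 to 1504 without 1 batch. Log2 differences that changed sign were those of Abi3bp by fibroblast RNA (0.0094 at 4000 genes, -0.23 to 0.023 without 1 batch) and by glial RNA (0.18 with at least 8 cells, 0.011 after thinning), Ccn3 by glial RNA (-0.33 to 0.068 without 1 batch), Nell2 by fibroblast RNA (-0.0011 with DESeq2, -0.092 to 0.25 without 1 batch), Ptn by fibroblast RNA (-0.039 to 0.11), Tnfaip6 by fibroblast RNA (0.16 at 4000 genes, 0.020 with at least 8 cells, -0.38 to 0.079) and by injury score (0.036 with at least 8 cells), Thbs4 in Trpm8 (-0.031 at 10 CPM, -0.57 at 50 CPM, -0.014 to 3.03), and at 50 CPM Cd44 in Trpm8 (-0.31) and Comp in Ntsr1+Chrna3 (-0.44). The cause was not tested.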
